A study of Mus musculus with 6 samples.

Results

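Tpm1, Lmod1, Actn2, Chrna1 and Smtn are 5 genes of actin filaments, of the Z-disc and of the nerve-muscle contact, and their DNA methylation was read in mouse quadriceps muscle after training and without it. The members are all rows of the deposited methylation table whose RefSeq transcript belongs to 1 of these genes. They make up 71 of 268725 listed cytosine positions and 6 of 10755 gene regions, a gene region being a window of 3000 bp keyed by a transcript. Tpm1 has 2 regions and the other genes have 1 each, out of 10408 genes in all. The rule goes by gene name and uses no measured value, but the genes were picked with earlier results of these data known.

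Both groups were C57BL/6 mice, and DNA came from quadriceps, the large extensor muscle of the thigh. The exercised group (3 samples) had run on a motor-driven treadmill for 4 weeks, with tissue taken 3 hours after the final session, and the sedentary group (3 samples) was the untrained control. The labels name no age or sex and do not say whether a sample is 1 animal or a pool, so a p-value reflects only the scatter of these samples, which may be technical. Reduced representation bisulfite sequencing (RRBS) reads the CpG-rich fraction of the genome. Bisulfite turns unmethylated cytosines into bases read as T, so the share of reads still showing C is the methylation level of a position. For a gene region, the level given is the methylated share of all its calls, a call being 1 read at 1 listed position.

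In a striated muscle fibre, thin filaments of actin slide past myosin. Tropomyosin winds along actin and opens or covers the myosin sites, alpha-actinin ties the filament ends together in the Z-disc, and acetylcholine released by the motor nerve opens the receptor of the endplate. In vessel walls, smooth muscle uses other actin regulators, among them leiomodin 1 and smoothelin. DNA methylation sits mostly on cytosines followed by guanine (CpG). CpG-rich promoters are usually free of it, while most other CpGs of the genome carry it.

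For 2 genes the spacing of the listed cytosines could be laid on a promoter sequence, and these sequences show where the Actn2 and Chrna1 values may come from. Each run holds 300 bases from RefSeq (GRCm38.p6, minus strand of the genome, 5′ to 3′), with 250 before and 50 after the annotated gene start. Capitals mark the CpGs whose spacing matches listed positions. The first window is chr13:12340683-12340982 and the second chr2:73580289-73580588.
Actn2 promoter: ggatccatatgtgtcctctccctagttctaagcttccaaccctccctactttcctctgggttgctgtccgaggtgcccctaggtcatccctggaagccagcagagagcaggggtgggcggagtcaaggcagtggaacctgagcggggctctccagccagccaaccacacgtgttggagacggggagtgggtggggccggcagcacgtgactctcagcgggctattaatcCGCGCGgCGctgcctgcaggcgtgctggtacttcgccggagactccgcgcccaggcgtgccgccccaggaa
Chrna1 promoter: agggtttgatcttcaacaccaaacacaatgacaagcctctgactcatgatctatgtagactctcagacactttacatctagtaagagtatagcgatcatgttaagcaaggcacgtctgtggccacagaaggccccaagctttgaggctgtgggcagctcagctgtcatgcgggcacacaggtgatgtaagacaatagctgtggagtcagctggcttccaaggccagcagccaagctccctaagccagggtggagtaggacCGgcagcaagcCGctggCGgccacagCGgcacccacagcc
All 4 listed Actn2 positions fell on a tight CpG cluster 14 to 21 bases before the start, in a window with 19 CpGs, while the median window of 32851 holds 7. Of the 11 Chrna1 positions, 7 fell on the 4 CpGs between 12 and 38 bases after the start, in a window with only 7 CpGs, and the other 4 lie past its end. The match rests on spacing alone, since the table uses mm9. The Actn2 spacing occurs in 8.33% of all windows and the Chrna1 spacing in 0.679%. No such match was found for Tpm1, Lmod1 and Smtn, whose positions are not placed against exons or introns here.

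The members spanned nearly the full range of methylation. Actn2 was almost unmethylated, at 0% to 1.95% across the 6 samples. Both Tpm1 regions and Smtn stood near 20% to 30%, with ranges of 19.6% to 23.7%, 22.1% to 29.6% and 21.0% to 24.6%. Chrna1 (54.4% to 74.1%) and Lmod1 (64.8% to 83.3%) stood highest, with mean levels above those of 97% and 97.9% of the tested regions. The ranges of Actn2, of the middle 3 regions, and of the upper 2 do not overlap. Within the middle 3 the ranges overlap, and so do those of Chrna1 and Lmod1, although Lmod1 lay above Chrna1 in 6 of 6 samples.

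None of the 6 member regions differed between exercised and sedentary muscle by edgeR's quasi-likelihood test, and the 2 groups overlapped in every one. All 6 had enough positions to be tested, and their adjusted p was 1 in each case (edgeR, Benjamini-Hochberg over 10021 regions). Across all tested regions 0% passed, 2.37% had an unadjusted p under 0.05 and 7.25% had groups that did not overlap (2.35% with exercised samples lower), against 0 of the 6 members on each count. Tpm1 at its higher coordinate and Smtn had higher means in exercised muscle, and the other 4 regions had lower ones. Over all regions 61% had a higher mean in exercised samples and 39% a lower one, and the median difference was 0.390 percentage points. A level in whole muscle is a share over all its cells, so a shift in the mix of cells and a shift within 1 cell type cannot be told apart.

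**Figure D1:**
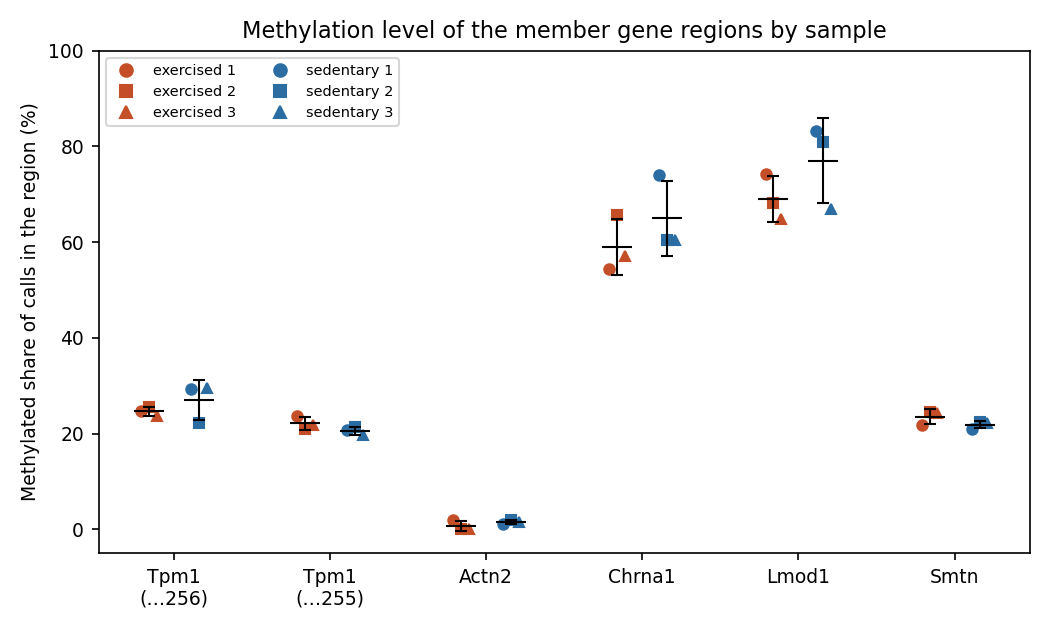
Methylated share of calls (%) in the 6 member regions, 1 point per sample, with bars for the mean and SD of 3 samples per group; Tpm1 appears as 2 transcripts by their last digits. Actn2 stays under 2%, Chrna1 and Lmod1 stay above 50%, and the exercised and sedentary points overlap in every region.

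Tropomyosin 1, encoded by Tpm1, is the actin-binding coiled coil that covers the myosin sites of the thin filament, and the gene makes many isoforms for muscle and other cells. Its better-covered region (NM_001164255, chromosome 9, 66896021 to 66899020, mm9) held 27 positions at a mean of 88.1 reads, more than 97.2% of the regions tested. In sample order, the level was 23.7%, 21.0% and 21.8% with exercise and 20.7%, 21.3% and 19.6% without. Exercised sample 1 lay highest and sedentary sample 3 lowest, and the rest interleaved. The means were 22.2% ± 1.39 and 20.6% ± 0.842 (SD, n = 3 each), a difference of 1.60 points (edgeR p = 0.212, exact permutation p = 0.2, smallest possible 0.1). The difference was 0.838 points without exercised sample 1 and 0.224 with every position weighted equally. It was 3.26 without stand-alone cytosines (edgeR unadjusted p = 0.0414, adjusted p = 1). Those are cytosines at 10% or more whose neighbours within 50 bases are together under 10%. With the median of the neighbours used to define them, the difference was 1.94 points (edgeR unadjusted p = 0.362).

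The other Tpm1 region (NM_001164256, chromosome 9, 66890679 to 66893678) held 10 positions at a mean of 32.0 reads. It was methylated at 24.7%, 25.6% and 23.6% in the exercised and at 29.3%, 22.1% and 29.6% in the sedentary samples. The exercised samples sat close together, inside the wider spread of the sedentary ones. The means of 24.7% ± 0.999 and 27.0% ± 4.26 differ by -2.33 points (edgeR p = 0.611, exact permutation p = 0.4). Leaving out sedentary sample 2 gave -4.79 points, and leaving out sedentary sample 3 gave -1.04.

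The members fall into 9 stretches with no gap over 100 bases, and the groups overlapped in all but 1 of them. How many such stretches separate over the whole table was not counted, while 7.25% of all tested regions had groups that did not overlap. The exception among the 9 was the 8 cytosines of the lower Tpm1 region that lie within 30 bases. In this stretch (66891629 to 66891658) the level was 27.7%, 28.3% and 29.5% in exercised and 33.9%, 33.2% and 36.4% in sedentary samples. Every exercised sample was below every sedentary one, with means of 28.5% ± 0.944 and 34.5% ± 1.70. The stretches were marked off after the values were known, so no p is given for them. The 2 cytosines in it that differed most were 66891629 and 66891658. Position 66891629 had 15.1%, 14% and 17.6% with exercise and 35.7%, 25.6% and 57.1% without. Position 66891658 was at 14.6%, 13.3% and 14.3% against 26.7%, 33.3% and 18.2%. Both had all exercised samples below all sedentary samples, with differences of -23.9 and -12 points on 11 to 73 reads per sample, and the edgeR adjusted p was 0.919 for both. Between them lay 4 cytosines at under 10% in every sample, and 2 near full methylation.

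Those near-full cytosines were the partners of the 2 that differed. Position 66891630, next to 66891629, was at 100% in 5 samples and at 90.9% in sedentary sample 3. Position 66891657, next to 66891658, averaged 94.2% ± 6.95 with exercise and 94.5% ± 2.85 without. Adjacent listed positions are taken here as the cytosines of the 2 strands of 1 CpG, which a given molecule usually carries in the same state. In this pair of CpGs 1 strand was near full methylation while the other stood at 23.2% and 19.4% in pooled reads.

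This strand gap was not limited to that stretch. Of 22 adjacent pairs in the members, 7 (31.8%) had strands more than 20 points apart when the reads of all samples were pooled, and in 6 of these 7 a strand was over 90%. Over all listed cytosines 22939 of 89436 pairs (25.6%) were that far apart, and 17500 of them had a strand over 90%. Tpm1 held 6 of the 7, among 14 pairs. At 66896087 and 66896088 the strands stood at 99.5% and 13.9%, and in each of the 6 samples the first was higher, the second minus the first running from -90.4 to -80.5 points. The pair at 66896836 and 66896837 stood at 56.4% and 99.0%. Chrna1 had 1 such pair of 5, at 73418302 and 73418303 with 56.4% and 100%, and Smtn had 0 of 3. These pairs were picked as examples after their values were seen.

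**Figure D2:**
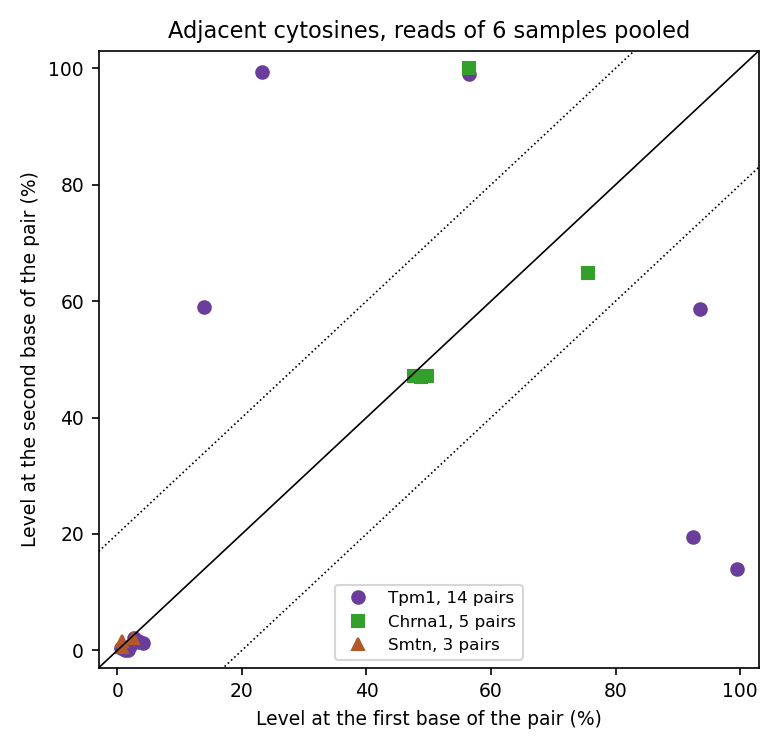
Pooled methylation level (%) of the first against the second base of each adjacent pair in Tpm1 (14 pairs), Chrna1 (5) and Smtn (3); the solid line marks equal levels and the dotted lines a gap of 20 points. The 7 pairs outside the dotted lines are 6 from Tpm1 and 1 from Chrna1.

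In the higher Tpm1 region, most cytosines were near 0 and a few stood far above their neighbours. Of its 27 positions 17 were under 10%, 3 over 90% and 7 between. The largest falls and rises of its group means were -16.8 points at 66896836 (47.1% ± 8.58 against 63.9% ± 21.7), -4.25 at 66897445, 5.63 at 66896053 and 9.72 at 66897451 (65.3% ± 18.1 against 55.6% ± 11.7). All 4 overlapped between the groups. At 66897445 the only high value was 25.9% in sedentary sample 2, with the other 5 samples at 0% to 6.06%. In the lower Tpm1 region, 66891230 had 24%, 5.26% and 0% with exercise and 0% in all 3 sedentary samples. Its unadjusted edgeR p was 0.0188 and its adjusted p 0.919, and without exercised sample 1 the difference of 9.75 points was 2.63.

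Leiomodin 1, encoded by Lmod1, nucleates actin filaments in smooth muscle and belongs to the tropomodulin family of filament-end proteins. Its region (NM_053106, chromosome 1, 137219390 to 137222389) was the most methylated member, read at 4 positions within 30 bases and 32.6 reads on average. The level was 74.2%, 68.2% and 64.8% in exercised and 83.3%, 80.9% and 66.9% in sedentary samples. Sedentary samples 1 and 2 stood above all exercised samples, and sedentary sample 3 fell among them. The means of 69.1% ± 4.75 and 77.0% ± 8.83 differ by -7.96 points, a size larger than in 99% of tested regions (edgeR p = 0.268, exact permutation p = 0.3). The SD over the 6 samples was also larger than in 97.9% of tested regions, while the mean reads were above those of only 11.5%. Sedentary samples 1 and 2 rested on 66 and 47 calls, and the difference ran from -13.0 points without sedentary sample 3 to -4.81 without sedentary sample 1.

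One Lmod1 cytosine carried most of that difference. Position 137221631 had 50%, 58.5% and 69.7% with exercise and 100%, 83.3% and 90% without. All exercised samples were lower, with means of 59.4% ± 9.88 and 91.1% ± 8.39 and a difference of -31.7 points. Its reads were 40, 65 and 33 against 17, 12 and 30, and the 95% Wilson interval of exercised sample 3 (52.7% to 82.6%) overlapped those of the 3 sedentary samples, the widest being 55.2% to 95.3% in sample 2. The unadjusted edgeR p was 0.0287 and the adjusted p 0.919. The authors' deposited table gives this position an unadjusted p of 0.0133 and the class of strong hypomethylation, the only member position in a strong class, where 0.211% of tested positions are. Of all tested positions 3.13% have such a p under 0.05 in the authors' deposited table, and among the members it was this 1 position.

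The other 3 Lmod1 cytosines did not move with it. Position 137221637, 6 bases away, was at 96.8% to 100% in every sample. Positions 137221608 and 137221611 differed by 0.777 and -1.02 points, and their ranges overlapped widely, from 38.7% to 92.5% and from 48.4% to 55.4% in exercised samples against 46.7% to 75.0% and 33.3% to 63.6% in sedentary ones. Leaving out 1 sample turned the sign of both, with values from -13.3 to 13.5 points and from -10.9 to 4.22.

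**Figure D3:**
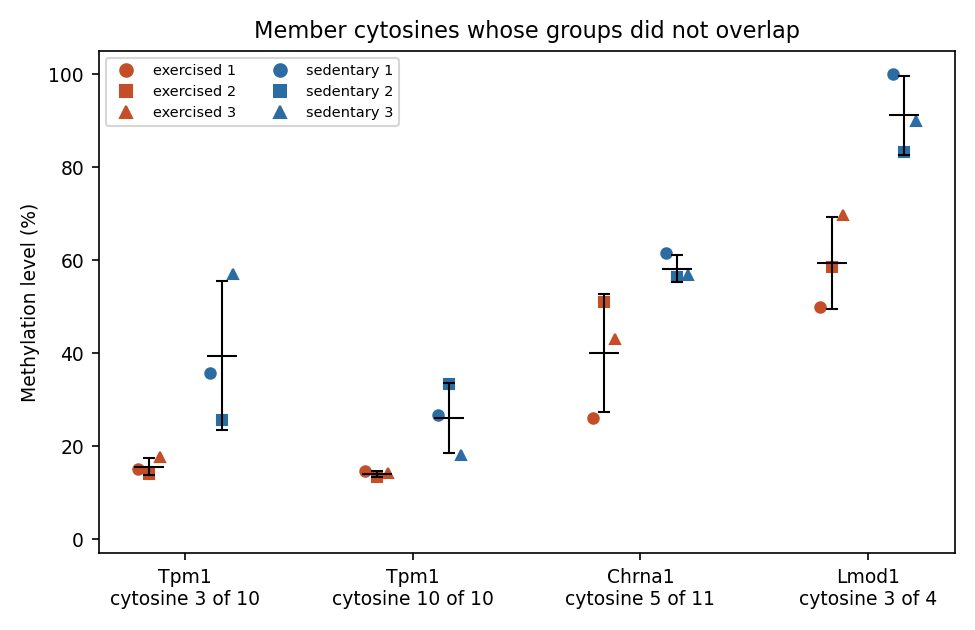
Methylation level (%) by sample at the 4 member cytosines whose exercised and sedentary samples did not overlap, with the mean and SD of 3 samples per group; each is named by its order within its region. All 4 are lower in exercised samples, by 12 to 31.7 points. They were picked for not overlapping, which held for 4 of 66 tested member positions and for 6.16% of all tested positions.

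Alpha-actinin 2, encoded by Actn2, crosslinks actin filaments of neighbouring sarcomeres in the Z-disc. Its listed positions, which the spacing match above puts on the CpG cluster just before the start, were nearly free of methylation in every sample. Its region (NM_033268, chromosome 13, 12432000 to 12434999) held 1 methylated call of 52, 0 of 73 and 0 of 140 in exercised samples, and 1 of 84, 3 of 154 and 1 of 63 in sedentary samples. Counts of 0 allow a level of up to 4.11% and 2.14% if every call is independent. The 4 positions lie close together and can share reads. At 12433015 alone the limits in the same 2 samples were 15.8% and 8.33%. The level was 0.641% ± 1.11 against 1.58% ± 0.379, and only 0.409% of tested regions had a lower mean. The difference of -0.934 points rests on 1 methylated call against 5 (edgeR p = 0.144, exact permutation p = 0.3). Without exercised sample 1, which held that call, it was -1.58 points (edgeR unadjusted p = 0.0266, adjusted p = 1). Single positions held 0 to 2 methylated calls per sample, 12433015 held 0 in all 6, and the differences at 12433012, 12433017 and 12433019 were 0.0202, -2.08 and -1.71 points.

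Chrna1 encodes the alpha subunit of the muscle acetylcholine receptor, which binds the transmitter at the endplate. Its region (NM_007389, chromosome 2, 73417396 to 73420395) was methylated at 54.4%, 65.6% and 57.1% in exercised and 74.1%, 60.4% and 60.5% in sedentary samples, over 11 positions at 42.2 reads. Sedentary sample 1 stood above all others and exercised sample 1 below all others, while the other 4 mixed. The means were 59.0% ± 5.81 and 65.0% ± 7.90, a difference of -5.95 points (edgeR p = 0.189, exact permutation p = 0.4). Without sedentary sample 1 the difference was -1.39 points, and without exercised sample 2 it was -9.21.

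By the spacing match, 3 CpGs lie 22 to 38 bases after the Chrna1 start. They stood near 50% methylation in pooled reads, with a small gap between strands there. Their 6 strands stood at 46.9% to 49.7% in pooled reads, the second minus the first running from -2.52 to -0.546 points. In single samples this gap ran from -24.9 to 15.6 points over the 3 CpGs. The cytosine of the remaining matched CpG, 73418384, which lies in the only CCGG of the window, averaged 98.4% ± 2.82 with exercise and was at 100% in all sedentary samples. CCGG is the site cut by MspI, the usual RRBS enzyme, and 52.78% of all windows hold at least 1. None of the other matched Chrna1 or Actn2 cytosines lies in a CCGG.

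Of the 10 Chrna1 positions tested, 9 had lower means in exercised samples. These positions share reads and are not independent of each other. At 73418358 the level was 26.1%, 50.9% and 43.0% in exercised and 61.5%, 56.3% and 56.7% in sedentary samples. All exercised samples were lower there, with a mean difference of -18.2 points (edgeR adjusted p = 0.919). At 73418373, a matched CpG 15 bases away, the level was 17.8%, 55.6% and 44.9% against 61.5%, 51.0% and 62.1%, which overlap (-18.8 points, edgeR adjusted p = 0.919). Leaving out exercised sample 1 gave -11.2 and -7.98 points at these positions, and leaving out exercised sample 2 gave -23.6 and -26.9. The opposite strand of the same 2 CpGs differed by -9.61 and -3.22 points. The exception was 73418302, with 66.9% ± 11.9 against 40.8% ± 28.2, where sedentary sample 1 at 73.2% lay among the exercised samples and sedentary samples 2 and 3 at 22.0% and 27.3%. The 26.0 points there became 42.2 when sedentary sample 1 was left out and 16.6 when sedentary sample 2 was.

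Smoothelin, encoded by Smtn, binds actin in contractile smooth muscle, with longer forms in vessels. Its region (NM_013870, chromosome 11, 3438296 to 3441295) gave 21.7%, 24.6% and 24.3% with exercise and 21.0%, 22.4% and 22.1% without, over 15 positions at 48.0 reads. Exercised samples 2 and 3 lay above all others, and exercised sample 1 lay among the sedentary samples. The means of 23.5% ± 1.61 and 21.9% ± 0.734 differ by 1.66 points (edgeR p = 0.306, exact permutation p = 0.3).

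That middle level of Smtn was made by few cytosines. Positions 3439079, 3439169 and 3439229 stood at 92.0% to 100% in every sample, 10 positions were under 10%, and 3439125 and 3439137 were between. Without the 3 near-full cytosines the region averaged 4.02% ± 0.915 with exercise and 3.49% ± 0.518 without. The largest rise, 6.25 points at 3439137, had levels of 34.9%, 7.58% and 23.8% against 4.17%, 34.0% and 9.38%, so high and low samples were in both groups. The largest falls were -2.36 points at 3439196 and -1.39 at 3439209. The Smtn difference was 2.85 points at positions with at least 20 reads in every sample and 2.58 without exercised sample 1. It was 0.533 without stand-alone cytosines, and -0.270 where the median of the neighbours was used to define them.

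The same held for Tpm1 and not for Chrna1 and Lmod1. Without positions over 90%, the higher Tpm1 region stood at 9.07% ± 1.12 against 6.83% ± 1.64 and the lower one at 5.64% ± 1.74 against 9.84% ± 2.87. Chrna1 still stood at 52.3% ± 8.44 against 59.5% ± 8.24, and Lmod1 at 58.8% ± 6.32 against 69.5% ± 11.2. With the neighbour median as the criterion, the lower Tpm1 region lost 4 of 10 positions and stood at 2.31% ± 2.45 against 1.75% ± 0.345, so that its difference turned to 0.556 points. Chrna1, Lmod1 and Actn2 held no stand-alone cytosine by either criterion.

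**Figure D4:**
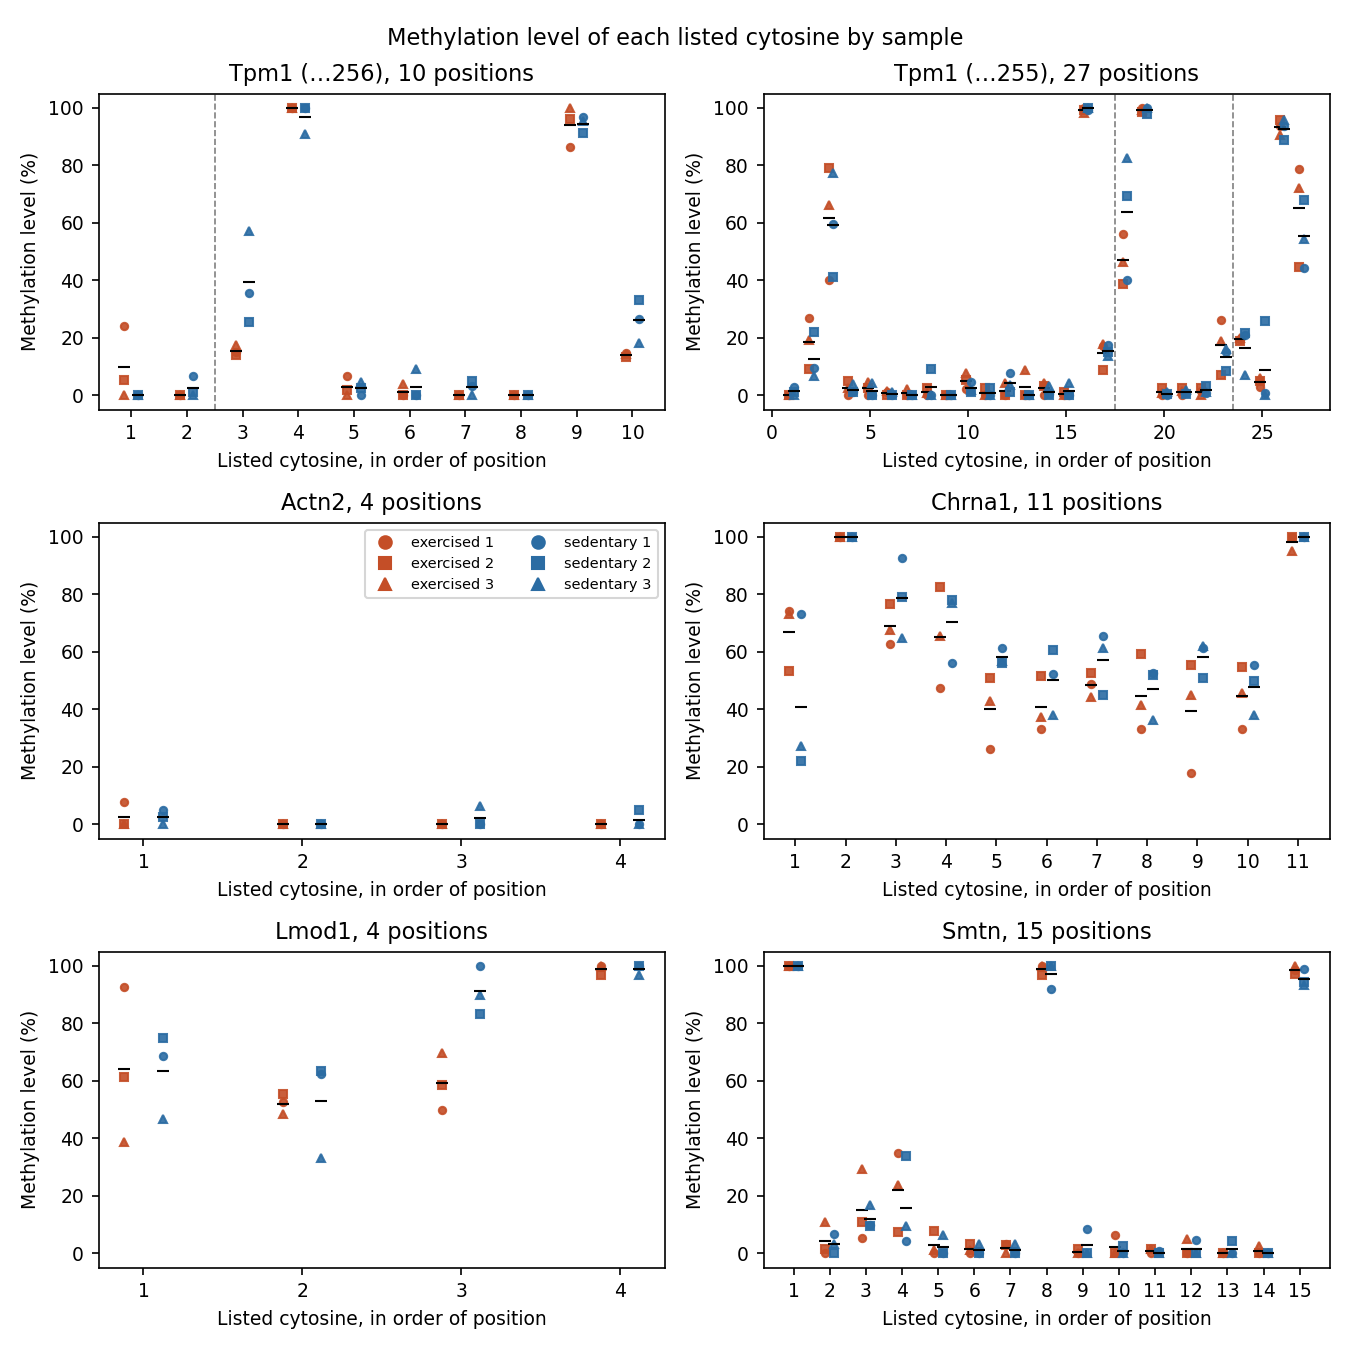
Methylation level (%) of every listed cytosine of the 6 regions, in order of position, 1 point per sample, with a bar for each group mean; dashed lines mark gaps over 100 bases. Tpm1 and Smtn show cytosines near 0 with a few near 100%, 9 of the 11 Chrna1 cytosines have group means of 39.4% to 78.8%, and Actn2 lies under 10%.

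Over all 71 member positions, 37 were under 10% (52.1%, against 69% of the whole table), 23 between 10% and 90% (32.4% against 18.7%) and 11 over 90% (15.5% against 12.3%). Reads per position and sample ran from 10 to 179. The 66 positions with both methylated and unmethylated reads were tested, and 0 passed after adjustment by edgeR, as did 0% of all tested positions. An unadjusted p under 0.05 was found at 2 of 66, where the table has 3.32%. Groups did not overlap at 4 positions, where the table has 6.16%. Exercised means were higher at 36, lower at 30 and equal at 5, where 53.7% of all tested positions were higher and 46.1% lower.

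Other genes of the same structures, from lists of known members, also showed no region past the test. The 2 other genes described from each list were picked for the smallest unadjusted edgeR p, so their values are selected ones. Of the 31 thin filament genes 11 were measured, in 12 regions that include Tpm1 and Lmod1; 6 means were higher with exercise and 6 lower, and the median difference was 0.276 points. Cfl2, the muscle cofilin that disassembles actin filaments, had 21.6%, 17.8% and 16.5% with exercise and 10.5%, 15.4% and 14.9% without. All exercised samples were higher, by 5.02 points on average (edgeR unadjusted p = 0.0225, adjusted p = 1, exact permutation p = 0.1), and by 0.378 points at positions with at least 20 reads in every sample. Capza2, a filament-capping subunit, differed by 1.42 points and overlapped, with 0.359 points without exercised sample 1 and 2.06 without exercised sample 3.

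Of 13 measured Z-disc regions (31 genes listed), which include Actn2, 7 had higher means with exercise and 6 lower. The median difference was 0.622 points, and 0 had an unadjusted p under 0.05. Pdlim3, an actinin-binding PDZ-LIM protein, averaged 21.9% ± 3.43 with exercise and 27.0% ± 4.04 without (edgeR unadjusted p = 0.0689, exact permutation p = 0.3), with sedentary sample 3 among the exercised values. Its difference of -5.06 points was -11.0 at positions with at least 20 reads and -3.01 without sedentary sample 1. Pdlim7, of the same family, stood at 31.2% ± 1.29 against 28.0% ± 4.26, and leaving out 1 sedentary sample gave 0.847 points (sample 1) or 5.03 (sample 2).

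The endplate list of 30 genes gave 18 regions, of which 9 had higher and 9 lower means with exercise; the median difference was 0.0296 points, and 0 had an unadjusted p under 0.05. Chrna1 was its most methylated region and had its largest difference. Chrnb1, which encodes the beta subunit of the same receptor, stood at 39.4% against 37.1%, in the opposite direction. Agrn, the nerve-derived organiser of receptor clusters, differed by 1.31 points, at 20.2% ± 1.91 against 18.9% ± 0.725, and leaving out 1 sample gave 0.633 to 2.40. Groups did not overlap in 2 of the 18, Erbb2 and Prkar1a (-1.14 points), where 7.25% of all tested regions did not. Erbb2, a neuregulin co-receptor, had 22.1%, 22.5% and 20.7% against 23.4%, 22.8% and 23.1% (edgeR adjusted p = 1). Leaving out stand-alone cytosines by the neighbour median took its difference from -1.35 to 0.0809 points, and leaving out 1 sample gave -1.74 to -0.809. Agrn and Erbb2 were picked for the smallest p of the list after Chrna1, and Chrnb1 and Prkar1a were named after their values were seen.

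In the smooth muscle contraction list, 13 of 23 genes were measured. Smtn and Lmod1 are among them, and Lmod1 is also counted in the thin filament list. On the smooth muscle list 7 had higher means with exercise and 6 lower, the median difference was 0.401 points, and 0 had an unadjusted p under 0.05. Lmod1 stood apart in level there, at a mean of 73.1%, while its nearest neighbour on the list, the light chain gene Myl9, was at 36.8% in sedentary samples. Srf, the serum response factor of muscle promoters, differed by -1.10 points, and Ppp1r14a, an inhibitor of myosin phosphatase, by 3.40 points, both with overlapping groups. Leaving out 1 sample gave -1.65 to -0.352 points for Srf and 0.895 to 5.45 for Ppp1r14a.

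**Figure D5:**
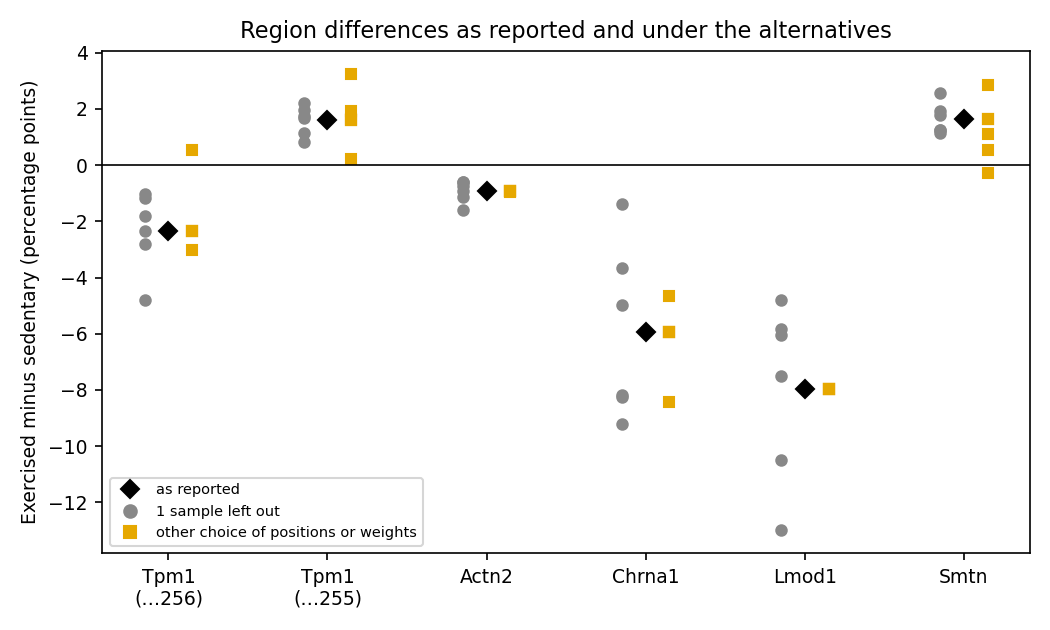
Exercised minus sedentary difference (percentage points) of the 6 member regions as reported (diamonds), with 1 sample left out (circles) and with another choice of positions or weights (squares). The lower Tpm1 region and Smtn cross 0 under the neighbour-median criterion, and Chrna1 runs from -9.21 to -1.39 points.

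Markers of cell types in muscle were read as methylation, which does not measure their expression, so the tissue label could not be checked by expression. Of 10 fibre markers only Acta1 was tested, at 73.7% against 71.0% over 3 positions. The 4 measured of 10 smooth muscle and pericyte markers all had higher means in exercised samples, with a median difference of 1.20 points. They were Myh11, Kcnj8, Cnn1 and Des. Des is also counted in the Z-disc list above, so it does not set smooth muscle apart from muscle fibres. Over all tested regions 61% had higher means and the median difference was 0.39 points. The groups overlapped for each of the 4 markers. The median level of the 4 ran from 22.7% to 24.6% in exercised and 21.3% to 24.3% in sedentary samples. The 4 measured of 7 genes listed for adipocytes had a median difference of -5.76 points, with median levels of 66.1% to 70.1% against 68.6% to 76.6%. Means were lower with exercise in 3 of them and higher in Pparg (0.754 points). The groups overlapped for Pparg, Lep (-8.03 points) and Fabp4 (-3.5 points). One of these 4, the fructose transporter gene Slc2a5 at 70.4% against 78.9%, had groups that did not overlap. Its unadjusted edgeR p was 0.00992 (adjusted p = 1). No marker of the other lists had such a p under 0.05 or groups that did not overlap. Slc2a5 and Lep had the largest falls of the 4, and the list was chosen with earlier results of these data known. The list median is therefore not read as a result about adipocytes. Endothelial, leukocyte, fibroblast and stem cell lists had 2 to 5 regions each, with medians between -1.45 and 2.01 points, and the nerve list was at 1.47. The part of cell makeup in the Lmod1, Smtn and Chrna1 values was not tested. Total calls ran from 9153526 in sedentary sample 3 to 18656340 in sedentary sample 2, and the median reads per member position were 45 to 65 in exercised and 23 to 49 in sedentary samples.

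The regions whose levels ran most alike over the 6 samples are given as a description, chosen as the highest of 7417 candidates by Pearson's r of the logit level. For the higher Tpm1 region they were C1galt1 (r = 0.999) and Cnot1 (0.993), and for the lower one Blm (0.991) and Nktr (0.988). For Actn2 they were Loxl2 (0.96) and Pitpnc1 (0.957), and for Chrna1 Bckdk (0.995) and Mmp25 (0.994). For Lmod1 they were Tm2d3 (0.998) and Msc (0.993), and for Smtn Fancc (0.98) and Zfp449 (0.974). With 6 points and this many candidates, 18 to 130 regions per member had an r above 0.9, and all share the same 6 libraries and their depth. The Actn2 levels rest on 0 to 3 methylated calls per sample, so its r values say little.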

How the data were processed

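Methylation was measured by RRBS in 3 exercised and 3 sedentary samples. Per the submitters' processing notes, the tools were Bismark 0.7.7 and Bowtie 0.12.9, Trim Galore 0.2.5 and cutadapt 1.0, with mm9 as build, and no setting is given. The authors deposited, for each sample and position, the methylated fraction and the coverage count, which was at least 10 in every sample. The fraction times the coverage was whole within 0.00236 of a read, which gave methylated counts. The deposited p-value, the deposited difference of group means and a class per position are quoted only as the authors' own. The deposited p-value carries no adjustment.

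Symbols for 10655 of 10755 transcripts, and promoter sequences, came from RefSeq tables (GRCm38.p6); coordinates are mm9. Counts were tested with edgeR 4.0.16 (R 4.3.3, quasi-likelihood, a term per sample and a group term on methylated counts, no dispersion trend), on positions and on regions with at least 3 positions, with Benjamini-Hochberg adjustment at 0.05 over the whole table. Units without both methylated and unmethylated reads were left out. The fit was tested on simulated data. Single values were compared by exact two-sided permutation over the 10 divisions into 3 and 3. Logit levels used an offset of 0.5 counts. Wilson intervals and the limit for a count of 0 (3 counts) cover counting error only. No molecular identifiers are named, so reads may not be independent molecules.

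Members and lists were chosen with earlier results of these data known. The text names every member region and, within each, the 2 positions per direction with the largest difference (all positions of regions with 6 or fewer), and from each list the 2 other genes with the smallest p. Other choices tried were the replicate number as a block, 1 sample left out at a time, at least 20 reads, removal of the most covered positions (over the 99.9 percentile), of stand-alone positions (2 criteria, the second, by the neighbour median, chosen after seeing the data) or of positions over 90% (chosen after seeing the data), merged strands, no minimum of positions, equal weights and limma 3.58.1 on log2 ratios of methylated to unmethylated counts with offsets of 2 and 0.5. Same-numbered samples did not deviate together (correlations 0.0021, -0.24 and -0.0834), so the numbers were not taken as pairs. No sample was a duplicate of another.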

Additional observations from a re-analysis of the deposited data

How the results depend on the processing

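No region and no position passed after adjustment under any alternative run, by edgeR or limma. Unadjusted p under 0.05 were found at 237 regions and 8426 positions, at 283 and 9068 by limma with an offset of 2, and at 290 and 11689 with 0.5; leaving out 1 sample gave 169 to 601 regions (601 without exercised sample 3) and 4440 to 7142 positions. With the replicate block, the counts past adjustment were 0 and 0 and the unadjusted counts 204 and 1852; the block left every difference of means as it was, and the numbers only name samples.

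Of 465 alternative values of 36 differences, 443 kept their direction. This count includes choices that could not change a difference of means: the replicate block, merged strands and no minimum of positions. For a single position, leaving out stand-alone positions or asking for at least 20 reads could not change its difference either. The same goes for leaving out stand-alone positions in a region that holds none. Leaving out the most covered positions also left the 36 differences as they were. The count therefore overstates how far the directions were put to the test. Without stand-alone positions by the neighbour median, 3 region differences turned: Tpm1 (lower coordinate) to 0.556, Smtn to -0.27 and Erbb2 to 0.0809 points. The cause was not tested. At single positions, limma turned Tpm1 66897445 (log2 0.102 and 0.752 with offsets 2 and 0.5), Actn2 12433012 (-0.29, offset 0.5), Lmod1 137221611 (0.0178, offset 2) and Smtn 3439125 (-0.0184, offset 2). Leaving out 1 sample turned 8 positions, with ranges in points of -8.69 to 4.27 (Tpm1 66897445), -2.54 to 1.30 (Actn2 12433012), -13.3 to 13.5, -10.9 to 4.22 and -1.01 to 1.08 (Lmod1 137221608, 137221611 and 137221637), and -3.77 to 0.469, -3.88 to 8.20 and -0.172 to 15.3 (Smtn 3439196, 3439125 and 3439137). At least 20 reads in every sample left too few positions for Actn2, Lmod1 and the lower Tpm1 region. Reads per member position and sample were 10 to 179.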
